A study of Mus musculus with 6 samples.

Results

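The mature arms of 3 microRNA (miRNA) hairpins, miR-140, miR-455 and miR-675, were followed through the zones of the mouse femoral growth plate. All 3 names are tied to cartilage in earlier work. The members were taken by exact name from the array, where they are listed as mmu-miR-140 with mmu-miR-140*, mmu-miR-455 with mmu-miR-455*, and mmu-miR-675-3p with mmu-miR-675-5p, and are written without the species prefix from here on. They make up 6 of the 690 mouse miRNAs and 16 of the 1928 probes on it. A star marks the arm that was taken as the minor product when the array was designed.

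Total RNA came from cartilage microdissected from the femoral growth plates of C57BL/6 mice aged 12 days, and each array carried RNA pooled from 5 growth plates. The 6 one-colour arrays fell into 3 zones, proliferative, prehypertrophic and hypertrophic, with 2 arrays each. All groups shared strain, age and tissue, no treatment or genetic change is labelled, and by their labels they differed only in the zone named for the sample. Slide row also differed between zones, as given below. The labels do not say whether the 2 pools of a zone held different animals, so p-values measure only the spread between these samples, which may be technical.

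A miRNA hairpin is cut by Dicer into 2 arms, named 5p and 3p for the side of the hairpin they come from. One arm is usually loaded into an Argonaute protein and pairs with messenger RNAs through its seed, bases 2 to 8. Both miR-140 and miR-455 are made from introns of genes that the chondrocyte factor SOX9 activates in mice, and mice without miR-140 have short limbs. The ligase gene Wwp2 hosts miR-140, and the fibrillar collagen gene Col27a1 hosts miR-455. The hairpin of miR-675 is cut from an exon of H19, an imprinted long noncoding RNA expressed from the maternal copy. In human articular chondrocytes miR-675 has been tied to the level of type II collagen.

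RefSeq's mouse annotation (GRCm38.p6) held mature sequences for 5 of the 6 arms, and miR-140-5p was the other. Names on the array follow miRBase version 14. By the later names, miR-140* is miR-140-3p, miR-455 is miR-455-3p and miR-455* is miR-455-5p. This match rests on names, since probe sequences were not used here. The 5 arms are shown because their seeds, in capitals, decide which messenger RNAs each can pair with, and each is written 5′ to 3′.
miR-140-3p: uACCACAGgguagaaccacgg
miR-455-3p: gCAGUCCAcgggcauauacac
miR-455-5p: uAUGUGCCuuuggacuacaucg
miR-675-3p: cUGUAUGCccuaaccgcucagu
miR-675-5p: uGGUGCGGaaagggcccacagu
On GRCm38.p6 they lie at chr8:107551288-107551308 (miR-140-3p, plus strand), chr4:63256904-63256924 (miR-455-3p, plus), chr4:63256867-63256888 (miR-455-5p, plus), chr7:142577078-142577099 (miR-675-3p, minus) and chr7:142577112-142577133 (miR-675-5p, minus). The hairpins lie within the spans of Wwp2 (107436334 to 107559290 on chromosome 8, protein coding), Col27a1 (63214009 to 63334991 on chromosome 4, protein coding) and H19 (142575530 to 142578146 on chromosome 7, lncRNA).

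All 5 seeds differed from one another. Among the 1679 mature mouse entries of the table, miR-140-3p shared its seed with miR-497b and miR-455-5p shared its seed with miR-5129-3p, and the other 3 seeds had no further match. The pair is shown for comparison with the arms above, again with the seed in capitals.
miR-497b: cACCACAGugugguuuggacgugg
miR-5129-3p: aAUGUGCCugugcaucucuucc
They lie at chr11:70234763-70234786 and chr2:45023110-45023131, both on the minus strand. The miR-675 hairpin (chr7:142577064-142577147, minus strand) is shown whole, because one of its arms gave signal and the other did not. The capitals mark the 5p arm and then the 3p arm.
Mir675: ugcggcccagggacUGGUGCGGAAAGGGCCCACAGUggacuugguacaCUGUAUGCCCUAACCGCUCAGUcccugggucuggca

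Each array held 13800 miRNA spots, of which 24.2% to 27.9% were well above background by the scanner software's flag and 0 were saturated. Signals are given in scaled units, in which every array has the same 75th percentile over the 342 probes well above background on all arrays. Values below 12.7 scaled units (3.66 on the log2 scale), near the lowest signal well above background, were set to that floor before log2 was taken and tests were run. Negative control spots had medians of 1.78 to 2.995 scaled units, and the highest of them read 6.95 to 10.5. All tests are limma fits with a threshold of 0.05 on the adjusted p-value. Those of miRNAs were run and adjusted over the 226 miRNAs that exceeded background on both arrays of 1 zone or more. Tests of single probes were adjusted over 446 probes and those of arm ratios over 16 hairpins. Of the 6 members, 5 entered the tests and miR-675-5p did not. Probes differ in how well they capture their target, so no level of one probe is set against that of another. In bulk RNA, fewer cells of a type and less RNA per cell cannot be told apart.

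The labelled tissue was checked against marker miRNAs. The chondrocyte markers were members themselves, so they are no independent check. Of a separate list of 15 miRNAs linked to chondrocytes, 8 were well above background on at least 1 array. Both arms of miR-140 and of miR-455 were well above background on all 6 arrays, while 0 of 4 skeletal muscle and 0 of 1 liver markers were so on any array. Of 2 nerve markers, miR-124 was so on 3 arrays, 1 in each zone, and miR-9 on none. Of 8 blood markers, 3 were above background on at least 1 array. With signals below 0 counted as 0, their list summed to 26.8 and 43.3 scaled units on the proliferative, 45.2 and 47.3 on the prehypertrophic and 265 and 290 on the hypertrophic arrays. The blood total was thus highest in the zone that borders vessels. There it was carried mostly by miR-451, an erythroid miRNA, at 226 and 254 on the hypertrophic arrays, against 13.8 and 9.77 on the proliferative arrays. From the same list, miR-144 read below 0 on all 6 arrays. miR-486 read 0.0913 and 18.1 on the proliferative, 0.926 and 8.74 on the prehypertrophic and 16.2 and 4.55 on the hypertrophic arrays. Of the white cell markers, the myeloid miR-223 was above background on 3 arrays, at 19.4 and 29.8 on the hypertrophic arrays, against 12.9 and 13.2 on the proliferative arrays (limma adjusted p = 0.0591), while miR-155, miR-150 and both miR-142 arms reached that level nowhere. Of 2 endothelial markers, miR-126-3p was above background on the hypertrophic arrays alone, and the list summed to 34.7 and 47.2 there, with 0 on the other 4 arrays. The part of these cells in the hypertrophic differences below was not tested.

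Signals of miR-140 were lowest in the hypertrophic zone. Its brighter probe read 2459 and 1498 scaled units on the proliferative, 1774 and 1756 on the prehypertrophic and 985 and 1302 on the hypertrophic arrays. After scaling, both hypertrophic arrays lay below both arrays of each other zone, and the prehypertrophic pair lay between the 2 proliferative arrays. The higher proliferative array was 1.64 times the lower one, against a ratio of 1.01 within the prehypertrophic pair and 1.32 within the hypertrophic pair. On the log2 scale the zones averaged 10.91 ± 0.51, 10.79 ± 0.01 and 10.14 ± 0.28 (SD, n = 2 each, in the order proliferative, prehypertrophic, hypertrophic). The gap to the proliferative zone depended on the scaling. Before scaling, this probe read 2235 and 1129 on the proliferative and 996 and 1718 on the hypertrophic arrays, which overlap.

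The other arm, miR-140*, ranked the arrays in the same order. It read 7050 and 4111 scaled units on the proliferative, 4286 and 4274 on the prehypertrophic and 2391 and 3108 on the hypertrophic arrays. The zone means were 12.39 ± 0.55, 12.06 ± 0.0028 and 11.41 ± 0.27 on the log2 scale (SD, n = 2 each, same order). The first proliferative array stood above every other array for both arms of the hairpin, and the gap between the proliferative arrays was larger than the gap between the proliferative and prehypertrophic means. Before scaling, miR-140* read 6407 and 3098 on the proliferative and 2418 and 4103 on the hypertrophic arrays, which also overlap.

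For miR-455 the proliferative and prehypertrophic signals overlapped and the hypertrophic signals were lower. It read 830 and 827 scaled units on the proliferative, 717 and 843 on the prehypertrophic and 505 and 463 on the hypertrophic arrays. The 2 proliferative arrays differed by a ratio of 1.003, and the prehypertrophic pair reached on either side of them. Log2 means were 9.69 ± 0.0035, 9.60 ± 0.17 and 8.92 ± 0.088 (SD, n = 2 each, same order). Before scaling, miR-455 read 754 and 623 on the proliferative and 510 and 612 on the hypertrophic arrays, without overlap.

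The star arm of the same hairpin followed another course. miR-455* read 28.0 and 24.8 scaled units on the proliferative, 46.5 and 49.1 on the prehypertrophic and 29.1 and 39.9 on the hypertrophic arrays. After scaling it was thus highest in the prehypertrophic zone, with the hypertrophic pair in the middle and no overlap between zones. The lower hypertrophic array exceeded the higher proliferative array by little. Log2 means were 4.72 ± 0.12, 5.58 ± 0.056 and 5.09 ± 0.32 (SD, n = 2 each, same order). Its spots agreed less well than those of miR-140*, with a coefficient of variation over the spots of an array of 9.14% to 18.03%, against 2.10% to 7.19%. Before scaling, miR-455* read 25.5 and 18.7 on the proliferative, 47.3 and 52.8 on the prehypertrophic and 29.4 and 52.6 on the hypertrophic arrays. The prehypertrophic and hypertrophic arrays thus overlap without scaling.

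miR-675-3p was dim, and after scaling its highest signals were in the proliferative zone and its lowest in the hypertrophic zone. Its brightest probe read 24.98 and 21.3 scaled units on the proliferative, 17.1 and 16.4 on the prehypertrophic and 6.78 and 11.6 on the hypertrophic arrays. It exceeded background on 4 of the 6 arrays, those of the proliferative and prehypertrophic zones. Both hypertrophic signals lay under the floor, and the lower of them within the range of the negative control spots. The zone means of 4.53 ± 0.16 and 4.06 ± 0.045 (log2, SD, n = 2 each) for the proliferative and prehypertrophic zones are measured values, while the hypertrophic mean of 3.66 is the floor itself, with a spread of 0 that was not measured. The scanner software's own detection call was positive for miR-675-3p on 5 of the 6 arrays.

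miR-675-5p gave no signal above background. Its 4 probes read -7.51 to -2.73 scaled units over all arrays, and the software called it detected on 0 of 6 arrays. Below-zero values arise where the subtracted background exceeds the spot. Only a bound can be given for this arm, and the balance of the 2 miR-675 arms could not be followed.

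**Figure D1:**
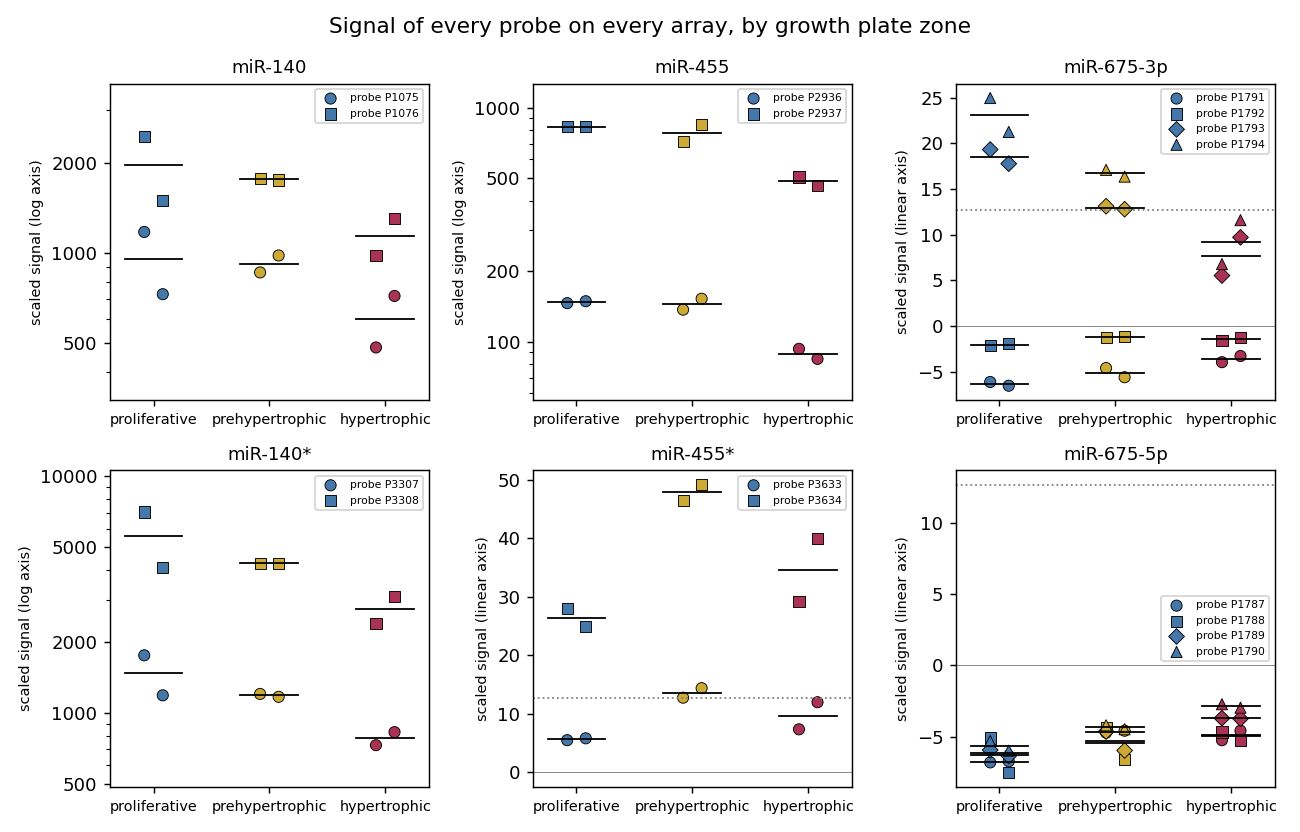
Scaled signal of all 16 probes of the 6 arms on every array, by zone (log axis for miR-140, miR-140* and miR-455, linear axis for the others). Each point is 1 array, marker shape gives the probe, the black bar is the mean of the 2 arrays and the dotted line is the floor of 12.7 scaled units. Hypertrophic points of miR-140, miR-140* and miR-455 sit lowest for both probes, miR-455* is highest in the prehypertrophic zone, and miR-675-5p lies below 0 throughout.

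Where an arm had a second probe above background, that probe ran alongside the brighter one. The dimmer probe of miR-140 read 1177 and 729 scaled units on the proliferative, 862 and 982 on the prehypertrophic and 484 and 719 on the hypertrophic arrays. The dimmer miR-140* probe read 1749 and 1185, 1201 and 1168, and 729 and 828 in the same order of zones. The dimmer miR-455 probe read 146 and 149, 137 and 152, and 93.1 and 84.3. For each of these 3 arms the hypertrophic pair was again below the other 4 arrays. The log2 gap between the 2 probes of an arm varied by 0.22 over the arrays for miR-140, by 0.30 for miR-140* and by 0.12 for miR-455. For miR-455* it varied by 0.61, and its dimmer probe, well above background on 2 arrays, read 5.51 and 5.83, 12.8 and 14.4, and 7.37 and 12.0, with the prehypertrophic pair again highest. A second probe of miR-675-3p read 19.3 and 17.8, 13.1 and 12.8, and 5.53 and 9.71, so after scaling it also read lower in each later zone. Before scaling this second probe read 17.6 and 13.4, 13.3 and 13.8, and 5.59 and 12.8, where the proliferative and prehypertrophic arrays overlap. The other 2 probes of miR-675-3p read below 0 on every array.

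The first comparison asked which members differ between the hypertrophic and proliferative zones. Of the 5 tested members, 1 passed the threshold, against 14.6% of all 226 tested miRNAs. That member was miR-675-3p, which in scaled units was at least 1.82-fold lower in the hypertrophic zone (log2 fold change -0.86, SE 0.25, adjusted p = 0.0393 with limma). This bound holds only for the scaling, floor and probe used. Without scaling the value was -0.43 (limma adjusted p = 0.215), and with the mean of all probes it was -0.35 (adjusted p = 0.19). This arm passed the filter only through the zones where it was higher and both hypertrophic arrays were set to the floor, so its spread there was not measured. The call was lost without the filter on dim miRNAs (adjusted p = 0.171). It was lost with 2 times the floor, where the value becomes 0, and kept its direction at 0.5 times the floor (-1.38, adjusted p = 0.00383). Leaving out any 1 array ended the call (adjusted p = 0.0836 to 0.232), except the second proliferative array (adjusted p = 0.0279).

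The arms of miR-140 and the main arm of miR-455 were lower in the hypertrophic zone by similar amounts, without passing the threshold. miR-140* averaged 11.41 in the hypertrophic and 12.39 in the proliferative zone, a log2 fold change of -0.98 (SE 0.31, 95% interval -1.66 to -0.31, adjusted p = 0.0534), which is 1.97-fold lower. For miR-455 it was -0.78 (SE 0.25, interval -1.33 to -0.22, adjusted p = 0.0579) and for miR-140 -0.76 (SE 0.30, interval -1.43 to -0.098, adjusted p = 0.13). For miR-455* the value was 0.37 (SE 0.27, interval -0.22 to 0.95, adjusted p = 0.488). With the slide row as a block miR-140 (adjusted p = 0.0337) and miR-140* (0.0181) passed, and with the title-number run as a block miR-140* (0.0346) and miR-455 (0.0306) passed. The median over the 5 members was -0.78, against -0.0017 over all tested miRNAs.

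After scaling, 4 of the 5 members on both hypertrophic arrays lay below both proliferative arrays, and miR-455* lay above them. Of all tested miRNAs, 46.9% showed such a gap in one direction or the other, and 27% were lower in this way. Unadjusted limma p-values were under 0.05 for 4 of the 5 members. The share of all miRNAs or probes with such p-values was not taken, here or for the unadjusted counts below. Those counts are therefore no result about the members. With an exact permutation test, 2 arrays against 2 cannot go below p = 0.333. Without the second proliferative array, which was the dimmer one for both miR-140 arms, the log2 fold changes were -1.12 for miR-140 and -1.37 for miR-140*. The slide row as a block gave the same values. Both hypertrophic arrays lie in row 1, so that block also sets them against the first proliferative array alone. The 2 settings are therefore 1 check. Without the first proliferative array the values of miR-140 and miR-140* were -0.40 and -0.59.

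As single probes, 8 of the 16 entered a fit over 446 probes. In the hypertrophic against the proliferative zone 0 of the 8 passed, against 8.97% of all 446, and 6 had an unadjusted limma p under 0.05. The 2 probes of miR-140 gave log2 fold changes of -0.65 and -0.76, those of miR-140* -0.89 and -0.98, and those of miR-455 -0.73 and -0.78. Each pair thus gave nearly the same size, with the brighter probe always the more negative.

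Between the prehypertrophic and proliferative zones 0 of the 5 members passed, against 2.21% of all tested miRNAs, and 1 had an unadjusted limma p under 0.05. That member was miR-455*, 1.81-fold higher in the prehypertrophic zone (log2 fold change 0.86, SE 0.27, interval 0.27 to 1.44, unadjusted p = 0.00833, adjusted p = 0.145). For miR-140 the value was -0.12 (interval -0.78 to 0.54, adjusted p = 0.911), for miR-140* -0.33 (interval -1.01 to 0.35, adjusted p = 0.684) and for miR-455 -0.092 (interval -0.64 to 0.46, adjusted p = 0.921). These intervals still allow changes of up to 2-fold for miR-140*, so a missed threshold does not show that the zones are alike. miR-675-3p stood at -0.46 (interval -1.01 to 0.088, adjusted p = 0.517). After scaling, arrays overlapped for miR-140, miR-140* and miR-455 and did not for the other 2 members, as was so for 36.3% of all miRNAs. The members' median was -0.12 and that of all tested miRNAs -0.14.

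Between the hypertrophic and prehypertrophic zones 0 of the 5 members passed, against 1.33% of all tested miRNAs. After scaling, all 5 were lower on both hypertrophic arrays, where 66.8% of all miRNAs were apart and 32.7% were apart and lower. The log2 fold changes were -0.64 for miR-140 (adjusted p = 0.275), -0.65 for miR-140* (0.275), -0.69 for miR-455 (0.256) and -0.49 for miR-455* (0.278). In scaled units miR-675-3p was at least 1.32-fold lower, a step that was not past the threshold (limma adjusted p = 0.332). Only miR-455 had an unadjusted p under 0.05 (0.0196). The members' median was -0.64 and that of all tested miRNAs -0.026. Over the 3 zones together the F test passed for 0 of 5 members (adjusted p = 0.113 to 0.218), against 7.96% of all miRNAs, and for 4 of the 5 its unadjusted p was under 0.05.

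**Figure D2:**
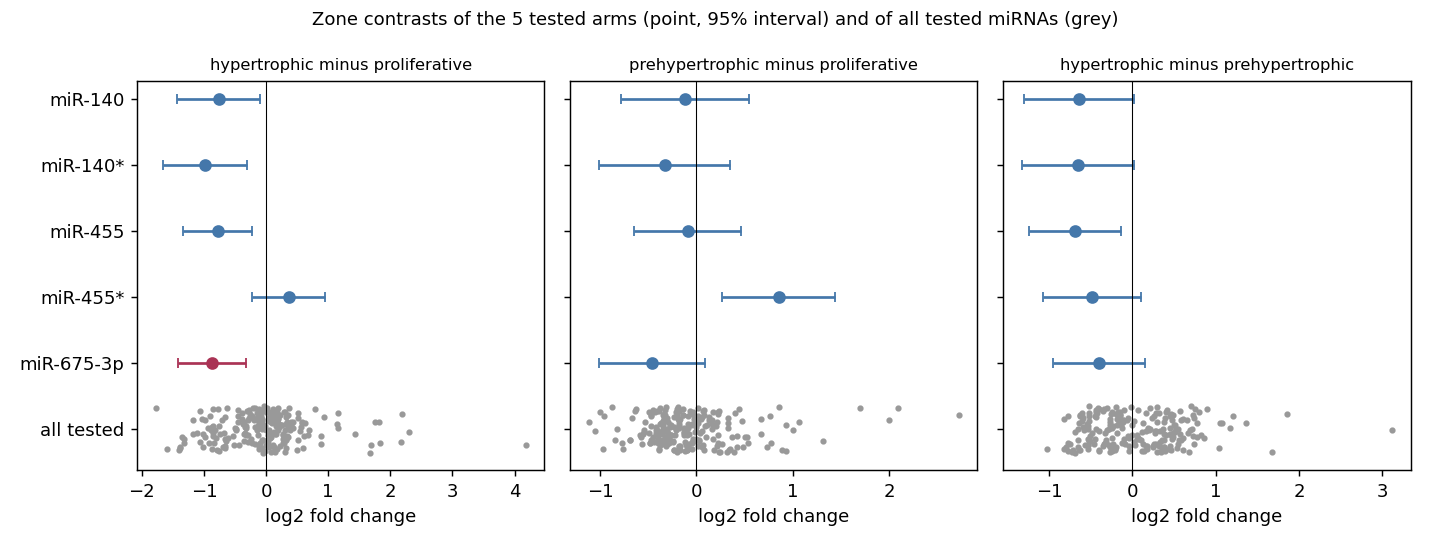
Log2 fold changes of the 5 tested arms in the 3 zone comparisons, with 95% intervals from limma, above the values of all 226 tested miRNAs (grey points, spread vertically at random). miR-675-3p in the first panel (red, -0.86) is the one value past the threshold, and miR-455* is the one arm to the right of 0 in the first and second panels.

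The order of the slide bears on these values. Both hypertrophic arrays lay in row 1 and both prehypertrophic arrays in row 2 of the slide, with 1 proliferative array in each, so zone and row cannot be told apart when these 2 zones are compared, other than by way of the proliferative arrays. With the row as a block, that difference became -1.36 for miR-140 and -1.43 for miR-140* (adjusted p = 0.0978 each) and -0.63 for miR-675-3p, while that of miR-455 was -0.69. Within row 1, the hypertrophic minus proliferative difference was -1.12 for miR-140, -1.37 for miR-140*, -0.78 for miR-455, 0.28 for miR-455* and -0.98 for miR-675-3p. Within row 2, the prehypertrophic minus proliferative difference was 0.24, 0.058, -0.089, 0.94 and -0.35 in that order of arms. The value of miR-455 was thus nearly the same with and without the row, and those of the miR-140 arms were larger within row 1.

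Title numbers 13 to 15 and 16 to 18 form 2 runs with 1 array of each zone, though no label calls them batches. The hypertrophic minus proliferative difference had the same sign in both runs for each member. It was -0.92 and -0.61 for miR-140, -1.18 and -0.78 for miR-140*, -0.84 and -0.71 for miR-455, 0.51 and 0.23 for miR-455*, and -0.98 and -0.75 for miR-675-3p. The prehypertrophic minus proliferative difference of miR-455* was 0.73 and 0.98. That of miR-140 was -0.47 and 0.23, so its sign changed between the runs, as did those of miR-140* (-0.72 and 0.056) and miR-455 (-0.21 and 0.028).

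Arm balance was read from the log2 ratio of the 2 arms on each array, whose level depends on the probes and is no ratio of molecules, but whose change between zones does not depend on a fixed probe efficiency. The ratio of miR-140* over miR-140 was 1.52 and 1.46 on the proliferative, 1.27 and 1.28 on the prehypertrophic and 1.28 and 1.26 on the hypertrophic arrays. In the proliferative and hypertrophic zones the 2 arrays agreed more closely in this ratio than in the signal of either arm. The ratio of miR-455* over miR-455 was -4.89 and -5.06 on the proliferative, -3.95 and -4.10 on the prehypertrophic and -4.12 and -3.54 on the hypertrophic arrays. Both prehypertrophic and both hypertrophic arrays lay above both proliferative arrays, by more than the proliferative arrays differed. The hypertrophic pair, at -4.12 and -3.54, lay further apart than the proliferative pair. In each of these comparisons with the proliferative zone, 50% of tested hairpins had arrays that did not overlap, in one direction or the other.

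In the main fit the balance of the miR-455 hairpin lay further toward the star arm in the hypertrophic than in the proliferative zone. This call held in 10 of 21 alternatives. The log2 ratio averaged -3.83 ± 0.41 in the hypertrophic and -4.97 ± 0.12 in the proliferative zone (SD, n = 2 each). Its difference of 1.15 (SE 0.24, interval 0.49 to 1.80, limma adjusted p = 0.0396) is a 2.21-fold shift, and it was 1.35 and 0.94 within the runs and 1.06 within row 1. In that comparison 4 of 16 tested hairpins passed, which is 25%, out of 171 hairpins with both arms named on the array. The other 3 were miR-322 (-1.63) and miR-483 (-0.61), taken as star over main arm like miR-455, and miR-125a (-1.28), taken as 5p over 3p. The sign of a 5p over 3p ratio cannot be set against that of a star ratio. The median of all 16, which mixes these forms, was -0.027. The miR-455 call was lost when any 1 array but the first hypertrophic one was left out (difference 0.86 to 1.23, adjusted p = 0.0922 to 0.141). With the row as a block, which is the same check as leaving out the second proliferative array, the difference was 1.06 and the call was lost.

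In the prehypertrophic zone the miR-455 ratio averaged -4.02 ± 0.11, against -4.97 ± 0.12 in the proliferative zone (SD, n = 2 each). The difference of 0.95 (interval 0.29 to 1.60, unadjusted p = 0.0148) did not pass the threshold (limma adjusted p = 0.21), nor did that of any hairpin (0%). It was 0.94 and 0.96 within the runs. Between the hypertrophic and prehypertrophic zones the ratio differed by 0.20 (interval -0.46 to 0.85, adjusted p = 0.624), where 6.25% of hairpins passed.

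For miR-140 the balance differed less. The ratio averaged 1.27 ± 0.017 in the hypertrophic and 1.49 ± 0.045 in the proliferative zone (SD, n = 2 each), a difference of -0.22 (SE 0.12, interval -0.56 to 0.12, limma adjusted p = 0.306). In the prehypertrophic zone it differed from the proliferative zone by -0.21 (adjusted p = 0.323), and the hypertrophic minus prehypertrophic difference was -0.0099 (interval -0.35 to 0.33, adjusted p = 0.973). Arrays did not overlap between the proliferative zone and either later zone, which held for 50% of hairpins in each of these comparisons. Over the 3 zones the F test of arm balance gave adjusted p = 0.386 for miR-140 and 0.0808 for miR-455, and 6.25% of hairpins passed it.

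**Figure D3:**
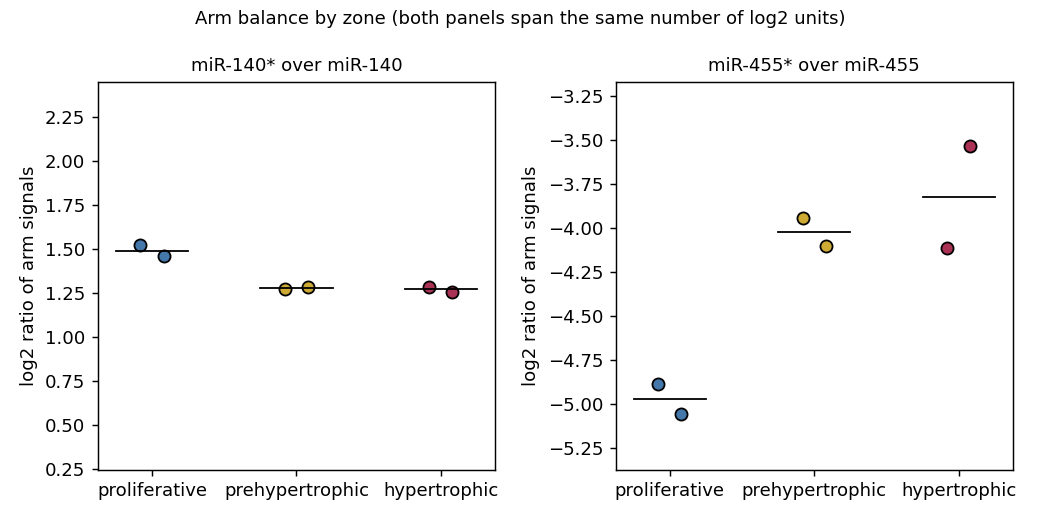
Log2 ratio of star arm over main arm for the miR-140 and miR-455 hairpins, by zone. Points are arrays, bars are the means of 2 arrays, and both panels span the same number of log2 units. The miR-455 ratio is lowest on the 2 proliferative arrays (-4.89 and -5.06), and the miR-140 ratio is highest there (1.52 and 1.46).

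**Figure D4:**
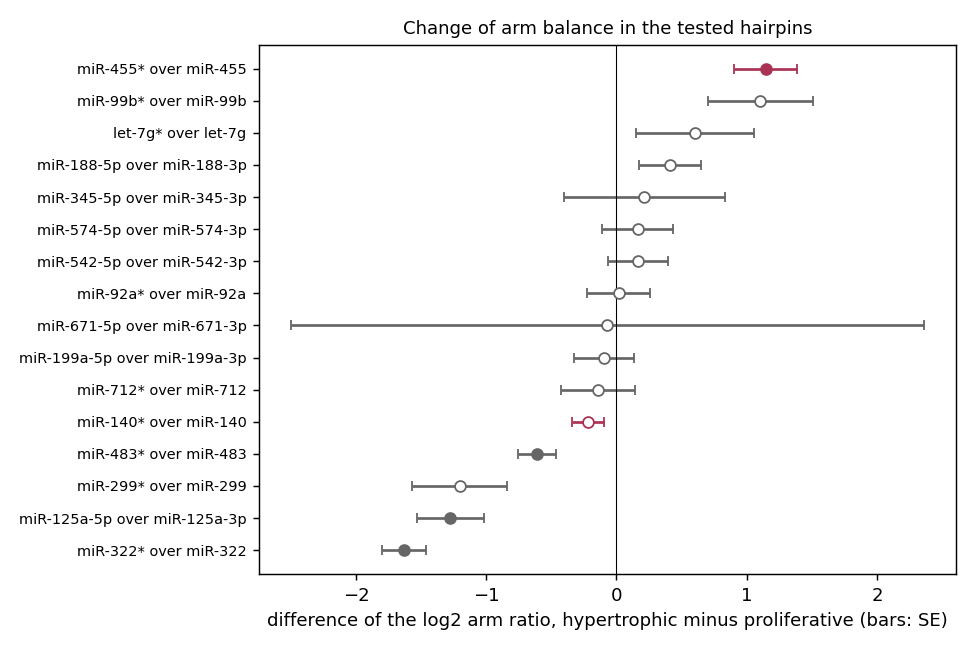
Hypertrophic minus proliferative difference of the log2 arm ratio for the 16 tested hairpins (points, with SE as bars). Ratios are star over main arm or 5p over 3p, as written beside each point, so signs compare only within one form. Filled points passed the limma threshold, red marks miR-455 (1.15) and miR-140 (-0.22), and miR-455 is the one filled point to the right of 0.

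Across the 6 arrays the members varied together to differing degrees. These correlations describe arrays that share zone, slide and scaling, and carry no test. Log2 signals of the 2 miR-140 arms correlated at 0.985 (Pearson), miR-140* and miR-675-3p at 0.903 and miR-455 and miR-675-3p at 0.852. The arms of miR-455 correlated at -0.048, so the star arm did not follow its partner over these arrays. miR-455* and miR-675-3p correlated at -0.40.

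Among the other 225 tested miRNAs, those most like each member over the 6 arrays were chosen by the highest Pearson correlation. For miR-140 they were miR-140* (0.985), miR-98 (0.984) and miR-497 (0.984). For miR-140* they were let-7f (0.998), miR-652 (0.993) and miR-130a (0.993). miR-455 was matched less closely, by miR-221 (0.931), miR-214 (0.892) and miR-345-5p (0.890). For miR-455* they were miR-450b-3p (0.979), miR-322* (0.964) and miR-669f (0.960), and for miR-675-3p let-7b (0.994), let-7e (0.990) and miR-125a-5p (0.990). With 6 arrays and 225 candidates, high values arise readily. The floor held both hypertrophic values of miR-675-3p, while let-7b, let-7e and miR-125a-5p read above it on all 6 arrays. It also held miR-450b-3p on the proliferative arrays, at 9.93 and 5.65 scaled units.

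Other miRNAs linked to chondrocytes were listed beside the members. Of a list of 15, all were on the array, 7 were tested, and 1 was higher and 0 lower in the hypertrophic than in the proliferative zone, a share near the 14.6% of all tested miRNAs. miR-193b, which acts early in the chondrogenesis of human stem cells, was the one that rose, at 62.5 and 66.3 scaled units on the hypertrophic arrays, against 34.9 and 24.0 on the proliferative arrays (log2 fold change 1.15, SE 0.27, adjusted p = 0.0177). miR-199a-3p (-0.62, adjusted p = 0.199), miR-29a (0.51, adjusted p = 0.517) and miR-365 (-0.29, adjusted p = 0.593) did not pass. None of the 7 passed in the other comparisons with limma, and the list's median was -0.24 in the hypertrophic against the proliferative zone.

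H19 is imprinted, so miRNAs of other imprinted loci were set beside miR-675. Of 7 such arms on the array 4 were tested, and 0 passed in any zone comparison with limma. In the hypertrophic against the proliferative zone miR-483*, from the Igf2 gene next to H19, had the lowest p (log2 fold change -0.80, unadjusted p = 0.00912, adjusted p = 0.0534). It read 27.3 and 23.5 scaled units on the hypertrophic arrays, against 43.1 and 45.5 on the proliferative arrays, without overlap. miR-296-5p stood at -0.35 (adjusted p = 0.488), miR-335-3p at 0.39 (adjusted p = 0.559) and miR-483 at -0.19 (adjusted p = 0.734). The median of the 4 was -0.27.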

How the data were processed

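RNA of 3 growth plate zones was labelled (100 ng each) and hybridised to 6 one-colour Agilent miRNA arrays of one slide, 2 per zone. Zones were taken from the sample labels. The deposited intensity of each spot is linear and background-subtracted, as made by Feature Extraction 10.7.3.1, per the file headers. Per the labels, the authors used GeneSpring. A table of log2 values was deposited too. Each of its columns equalled log2 of the scanner's total signal per miRNA (values under 1 set to 1) minus a constant, within 1.4e-06, which settles its scale, centring and direction. Column medians were -4.40 and -4.25 (proliferative), -4.46 and -4.45 (prehypertrophic) and -4.69 and -4.94 (hypertrophic). It served as an alternative.

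Control spots and outlier spots (384 to 515 per array) were left out and the spots of a probe were averaged. A probe was well above background where most of its spots were so flagged. Arrays were scaled to the 75th percentile of the 342 probes (17.7%) well above background on all 6. Each miRNA was read from its brightest probe. Contrasts were fitted on log2 values with limma 3.58.1 (lmFit and eBayes under R 4.3.3, 3 residual and 7.83 prior degrees of freedom, 1.38 prior for arm ratios), with Benjamini-Hochberg adjustment over all features of a fit, and the scripts were tested on simulated data. The number of arrays limits the precision.

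A bound ("at least") sets the mean of the brighter zone against the floor, or the dim probe's own signal where higher, and holds only for the scaling and floor used. Named besides the members were, per tested member, the 3 miRNAs of highest Pearson correlation, and up to 4 members of lowest p from 2 lists (other chondrocyte miRNAs, other imprinted loci). Markers of blood, endothelium, muscle, nerve and liver were summed. The members and lists were chosen with earlier results of these data known. Alternatives covered scaling, floor, filter, background correction, probe summary, blocks and leaving out each array. Normexp correction used the median spot signal.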

Additional observations from a re-analysis of the deposited data

How the results depend on the processing

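The labels give the zones no shared replicate numbers, so no replicate block was fitted, and the run of title numbers served as a block instead. The count of members past the threshold in the hypertrophic against the proliferative zone, 1 as reported, was 0 with 2 times the floor, the 75th percentile of all probes, median scaling, no scaling, no filter on dim miRNAs or the deposited value table. It was 2 with 0.5 times the floor or quantile normalization, 3 with slide row or title-number run as a block, and 4 with trend and robust eBayes, and leaving out 1 array gave 0 to 3. As single probes, 0 as reported, the count was 1 with only probes well above background on all 6 arrays, 2 with 0.5 times the floor, normexp or quantile normalization, 4 with the row as a block, and 5 with the run as a block or with trend and robust eBayes. Leaving out 1 array gave 0 to 4. The F test over zones, 0 as reported, called 1 member with 0.5 times the floor, normexp or the row as a block and 4 with trend and robust eBayes, and 0 to 1 without single arrays. Of the probes it called 1 with 0.5 times the floor and 2 with trend and robust eBayes. Of the arm ratios it called 1 with the run as a block and 1 with trend and robust eBayes.

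The hypertrophic call of miR-675-3p held in 6 of 20 alternatives (log2 fold change -2.41 to 0, adjusted p = 0.00383 to 1), and it could not be tested among miRNAs well above background on all 6 arrays. In 21 alternatives each, miR-140* was called in 7 (-1.37 to -0.50, adjusted p = 0.00129 to 0.563), miR-455 in 5 (-0.84 to -0.30, adjusted p = 0.0294 to 0.339), miR-140 in 3 (-1.12 to -0.28, adjusted p = 0.0186 to 0.64) and miR-455* in 0. The miR-455 arm shift held in 10 of 21 (0.52 to 1.43, adjusted p = 0.0165 to 0.153). The count of these 2 hairpins called, 1 as reported, was 0 with quantile normalization, the row as a block, the total signal per miRNA, the deposited table or probes well above background on all 6 arrays, and 0 to 1 without single arrays. Without the filter it was miR-140 that passed (-0.22, adjusted p = 0.0486) and not miR-455 (adjusted p = 0.153). The count over all miRNAs in that comparison, 33 as reported, ranged over 1 to 46, and over all hairpins, 4 as reported, over 0 to 9. For the hypertrophic against the proliferative zone, the row as a block and leaving out the second proliferative array are 1 check, entered above as 2 alternatives.

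Against the scaling used, leaving arrays unscaled moved the median over all miRNAs by 0.46 log2 units in the hypertrophic and 0.30 in the prehypertrophic zone, each set against the proliferative zone, and median scaling moved it by 0.11 and 0.13. Several small differences changed sign. In the prehypertrophic against the proliferative zone, miR-140 was 0.000755 with the 75th percentile of all probes, 0.10 in the deposited table, 0.014 with median scaling, 0.22 without scaling and 0.24 with the row as a block, and -0.48 to 0.24 without single arrays. miR-140* was 0.00668 without scaling and 0.058 with the row as a block, and -0.72 to 0.058 without single arrays. miR-455 was 0.030, 0.10, 0.043 and 0.25 in the first 4 settings named for miR-140 and 0.00679 with normexp, and -0.21 to 0.025 without single arrays. In the hypertrophic against the proliferative zone miR-455* and its brighter probe were -0.065 with normexp. The miR-140 arm ratio differed by 0.12 (prehypertrophic minus proliferative) with quantile normalization. Its hypertrophic minus prehypertrophic difference was 0.00072 with the deposited table or total signal and 0.012 with the mean of all probes, and -0.022 to 0.0023 without single arrays. That of miR-455 was -0.092 to 0.49 without single arrays. The cause was not tested. Signal over background limits miR-675-5p, which could not be tested, and miR-675-3p, which had only a bound in the hypertrophic zone.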

Other observations

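Signals of miR-124, a nerve marker, followed the title numbers. It read 0.838 and 36.6 scaled units on the proliferative, 0.239 and 18.02 on the prehypertrophic and 24.7 and 1.39 on the hypertrophic arrays. The 3 high values belong to the arrays with title numbers 16 to 18, and each zone holds 1 of them. The blood marker miR-486 split in the same way, at 0.0913 and 18.1 on the proliferative, 0.926 and 8.74 on the prehypertrophic and 16.2 and 4.55 on the hypertrophic arrays. The other nerve marker, miR-9, read below 0 on all 6 arrays.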
